A study of Rattus norvegicus with 28 samples.

Results

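Livers of female Sprague-Dawley rats fed NK603 maize that had been treated with Roundup during its cultivation (NK603+R, labelled GMO+R, 9 rats) were compared with livers of rats fed the same maize grown without Roundup (NK603, labelled GMO, 9 rats). These 18 samples, out of 28 in the series, were taken by their diet label alone. Livers of 10 control rats fed the isogenic non-transgenic maize were set beside them and took no part in the test. In every group the diet held 33% maize, and the groups compared differ in the Roundup treatment of the crop and in nothing else that the labels state for diet, sex or strain. The study reports that it detected no herbicide residue, within its limits, in livers of NK603+R rats or in the treated grain. RNA of 1 liver per rat was hybridised to an Affymetrix Rat Gene 2.0 ST array, and the values are log2 levels of 36685 transcript clusters (a cluster is the set of probes for 1 gene or transcript). A difference of log2 values is called a log2 fold change here, is NK603+R minus NK603 unless control is named, and is given with its standard error (SE).

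Rats were killed at the end of a feeding trial over most of their life, or earlier for welfare reasons, and many of them carried mammary tumours. By the study's counts, tumours were borne by most rats of both NK603 diets and by a smaller share of control rats. This limits the groups as a model of diet alone, also where they are set beside controls. NK603+R rats were 533 to 737 days old at death (median 723) and NK603 rats 393 to 737 days (median 715). Of the NK603 rats 3 were killed at a younger age than any NK603+R rat. Control rats were 540 to 737 days old (median 725). Each liver is a mixture of cells, so that fewer cells of a type and less RNA per cell cannot be told apart. Alb, the albumin gene that marks hepatocytes, had a mean log2 value of 14.06 with either NK603 diet and 14.05 in controls.

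The liver clears foreign compounds in steps. Receptors such as CAR (gene Nr1i3) and PXR (Nr1i2) sense them and drive cytochrome P450 genes, conjugating enzymes make the products soluble, and transporters export them. Hepatocytes also read cytokines of the interleukin 6 family, to which oncostatin M belongs, and type I interferons, which switch on acute phase genes and antiviral genes, and their large output of secreted proteins is handled by chaperones of the endoplasmic reticulum.

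No transcript cluster differed between the 2 diets at an adjusted p under 0.05 (limma, Benjamini-Hochberg adjustment over all clusters), and the smallest adjusted p was 0.0786. At the study's own selection limits, an unadjusted p under 0.01 with a fold over 1.1, 417 clusters (1.14% of those tested) were selected, 173 (0.472%) higher and 244 (0.665%) lower in NK603+R livers. If no cluster differed, about 366.85 would be expected under that p alone. With the limit at 0.05 instead of 0.01 and no fold limit, 2277 clusters (6.21%) were counted, of which 1037 (2.83%) were higher and 1240 (3.38%) lower. Whatever their p, 49.2% of all clusters had a higher mean in NK603+R livers. The selected changes were mostly small, with a median size of 0.34 on the log2 scale. Of them 83.7% were under 1.5-fold and 9 clusters were over 2-fold. Diet held 6.71% of the variance between the 18 livers, against a mean of 5.88% over all 48620 divisions into 9 and 9 (exact permutation test, one-sided, p = 0.171). The mean distance of a rat to the mean of its diet was 54.5 for NK603+R and 55.9 for NK603, a difference of -1.42 (exact permutation test, two-sided, p = 0.732). Genes are therefore described below by values and counts, and "higher" and "lower" stand for means that did not pass the adjusted test.

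Only 5 clusters (0.0136%) separated all 9 rats of one diet from all 9 of the other, 1 with every NK603+R rat above (0.00273%) and 4 with every NK603+R rat below (0.0109%). Obox2l1, an oocyte homeobox-like gene, was the one above. Its log2 value ran from 5.02 through a median of 5.29 to 5.60 in NK603+R rats, and from 4.01 through 4.73 to 5.01 in NK603 rats. This is below the median level of the array, 5.97, and the log2 fold change was 0.66 (SE 0.12, limma adjusted p = 0.231). Those below included Tiprl, a regulator of protein phosphatases, with -0.28, the ribosomal protein gene Rpl3 with -0.19, cluster 17756128 and 1 other cluster, neither with a gene symbol here. Rpl3 has near-identical copies in the genome and its probes may share signal with them. The smallest adjusted p belonged to the unnamed cluster 17606709, which was 2.01-fold higher, with 6 of 9 NK603+R rats above the highest NK603 rat. Clusters 17822890 and 17603959, also without a symbol, had log2 fold changes of -1.01 and -0.73 (adjusted p = 0.231 for both, from limma). Of the 417 selected clusters, 230 lay below the median level of the array and 107 had 1 gene symbol and a level at or above it, of which 45 were higher and 62 lower.

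Genes that oxidise foreign compounds stood at the upper end. Cyp2b2, a cytochrome P450 of the phenobarbital-inducible family, had the highest log2 fold change of the named genes. Its log2 values were 7.73, 9.20 and 9.75 (lowest, median and highest) in NK603+R rats and 6.83, 7.11 and 8.74 in NK603 rats. The groups overlapped, with 5 NK603+R rats above every NK603 rat and 6 NK603 rats below every NK603+R rat. The log2 fold change was 1.43 (SE 0.33, limma adjusted p = 0.686), or 2.69-fold. Its close relative Cyp2b1, which shares much of its sequence, was far dimmer and had a log2 fold change of 0.39 (0.13 in rats that lived for 700 days or longer), so that how the probes divide signal between both is uncertain. Control livers ran from 6.91 through 8.15 to 10.09, with 1 NK603 rat below their range and no NK603+R rat outside it.

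Fmo1, a flavin monooxygenase that oxidises nitrogen and sulphur compounds, was next among these enzymes. Its lowest, median and highest log2 values were 10.55, 11.10 and 12.29 in NK603+R rats and 8.62, 10.62 and 11.39 in NK603 rats, a log2 fold change of 0.89 (SE 0.29, limma adjusted p = 0.785). In 4 NK603 rats Fmo1 lay below every NK603+R rat and below every control rat. Nr1i3, the receptor CAR that drives Cyp2b genes, ran from 6.84 through 7.95 to 8.57 in NK603+R rats and from 6.16 through 7.14 to 8.25 in NK603 rats. These groups overlapped more widely, with 3 rats of each diet outside the range of the other, and the log2 fold change was 0.79 (SE 0.25, limma adjusted p = 0.785). Among the 6 NK603+R and 5 NK603 rats that lived for 700 days or longer that of Nr1i3 was 0.31, whereas that of Cyp2b2 was 1.37. Nr1i3 was higher on arrays with a higher median over all clusters. Pearson's r was 0.57 over the 18 rats, 0.43 within NK603+R and 0.67 within NK603, as a description. The part of the array median in the value of Nr1i3 was not tested. PXR (Nr1i2) had a log2 fold change of 0.09 and the P450 reductase gene Por, the electron donor of these enzymes, one of 0.06.

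**Figure D1:**
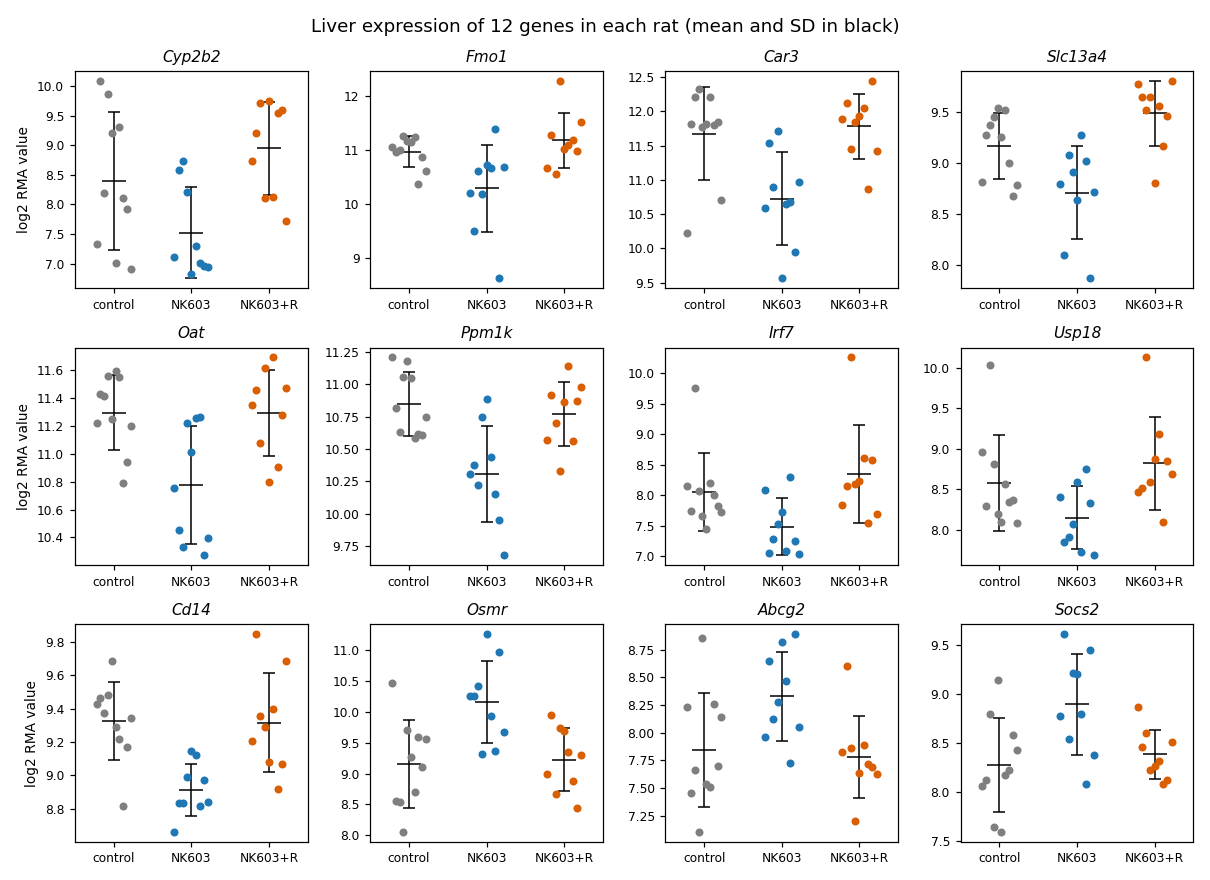
Log2 values of 12 named genes in each rat, with diet on the horizontal axis, 1 point per rat and the mean and SD in black. The diets overlap in every panel: Cyp2b2, for example, runs from 7.73 to 9.75 in NK603+R rats and from 6.83 to 8.74 in NK603 rats.

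Other genes of the detoxification system had smaller differences. Earlier results of these data were known when the gene lists of this and later paragraphs were drawn up. Members of a list were also measured in the same 18 rats, so they are not independent of each other. A list count set beside the share over all genes is therefore a description and not a test. Of 31 measured genes for oxidation of foreign compounds, 27 were higher and 4 lower, with a median log2 fold change of 0.10, where 52.0% of all genes were higher and the median over them was 0.01. At an unadjusted p under 0.05, where 5.55% of all genes lie, there were 4 of these 31, all higher. Besides Cyp2b2 and Fmo1 they were Aldh1a1, a retinal dehydrogenase, with 0.70 (0.46 without NK603 replicate 8) and Cyp2d4 with 0.27. In rats that lived for 700 days or longer Aldh1a1 was at 0.26 and Cyp2d4 at 0.40. Among 26 genes for conjugation 18 were higher, with a median of 0.09 and with 3 at an unadjusted p under 0.05, the glutathione transferases Gsta3 (0.38), Gstp1 (0.31) and Gstm7 (0.30). None was past that limit without NK603 replicate 8 or without NK603+R replicate 2. In the rats of 700 days or more Gsta3 was at 0.11, Gstp1 at 0.35 and Gstm7 at 0.51. The 24 xenobiotic and nuclear receptors held 21 that were higher and a median of 0.08, and Nr1i3 was the single member past that limit. Of 15 targets of NRF2, a transcription factor of the oxidative stress response, 7 were higher and 8 lower. Those past that limit were Gclc (0.26, or 0.12 in the older rats) and Gclm (0.22, or 0.28 in the older rats). They encode both subunits of the enzyme that starts glutathione synthesis. Here and below, list members with a p between 0.01 and 0.05 were chosen after their values were seen.

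Among 19 hepatic transporters 13 were higher, and the one that passed either limit went the other way. Abcg2, an exporter in the canalicular membrane, ran from 7.20 through 7.72 to 8.60 in NK603+R rats and from 7.73 through 8.27 to 8.89 in NK603 rats. NK603+R replicate 2 alone stood near the upper end of the NK603 range, and 5 NK603+R rats lay below every NK603 rat. The log2 fold change was -0.54 (SE 0.17, limma adjusted p = 0.785), and the control median of 7.68 was close to that of NK603+R. Ephx1, the microsomal epoxide hydrolase, had a log2 fold change of 0.20, Gsta2 one of 0.44 (0.18 without NK603+R replicate 6) and Cyp3a9 one of -0.43 (-0.15 without NK603+R replicate 8, and 0.00305 in the older rats), each with wide overlap between the diets.

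Several metabolic genes of hepatocytes were lower in NK603 rats than in the other diets. Car3, a carbonic anhydrase abundant in liver, ran from 10.86 through 11.89 to 12.45 in NK603+R rats and from 9.57 through 10.68 to 11.71 in NK603 rats. Its log2 fold change of 1.05 (SE 0.25, limma adjusted p = 0.686) was the second highest of the named genes, with 6 NK603+R rats above every NK603 rat. The control median was 11.81, and in rats that lived for 700 days or longer the log2 fold change of Car3 was 1.21. Slc13a4, a sulphate transporter, had values of 8.80, 9.56 and 9.80 in NK603+R rats and 7.87, 8.79 and 9.27 in NK603 rats. It had 7 NK603+R rats above every NK603 rat and the smallest adjusted p of the 24 named genes with the strongest changes (log2 fold change 0.78, SE 0.17, limma adjusted p = 0.658). Control rats lay between, at 8.67, 9.26 and 9.54. In rats that lived for 700 days or longer the log2 fold change of Slc13a4 was 0.56.

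Oat, the ornithine aminotransferase of hepatocytes around the central vein, ran from 10.80 through 11.35 to 11.69 in NK603+R rats and from 10.27 through 10.76 to 11.26 in NK603 rats. In NK603+R rats 6 values were above every NK603 rat, and 5 NK603 rats were below every control rat. Its log2 fold change was 0.52, that of Ppm1k, the phosphatase that activates branched-chain amino acid breakdown, was 0.46, and that of the growth factor gene Pdgfc was 0.50 (adjusted p = 0.785 for the 3, from limma). In rats that lived for 700 days or longer Oat was at 0.43, Ppm1k at 0.37 and Pdgfc at 0.57. Of 24 genes for the urea cycle and amino acid breakdown 22 were higher, with a median of 0.12, which was 0.06 without NK603 replicate 8, the rat killed at 393 days. Prodh, a proline dehydrogenase, was at 0.47 (0.64 in the older rats) and Hgd, of tyrosine breakdown, at 0.16 (0.13 in the older rats). Cps1, the entry enzyme of the urea cycle, was at 0.13, or 0.08 without that rat.

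Of 12 markers of pericentral hepatocytes, the zone around the central vein to which Oat and Nr1i3 belong, 11 were higher, with a median of 0.23 and with 4 at an unadjusted p under 0.05. The other two were Rhbg, an ammonium transporter, with 0.30 and the sterol hydroxylase gene Cyp27a1 with 0.24. In rats that lived for 700 days or longer the median was 0.13, with none past that limit and Rhbg at 0.12. Of 14 periportal markers 9 were higher, among them Cyp17a1, a steroid hydroxylase, with 0.69, or 0.36 in rats of at least 533 days. The mean of the pericentral list, taken as a deviation from the mean over the 18 rats, ran from -0.15 to 0.48 in NK603+R rats and from -0.51 to 0.12 in NK603 rats, with NK603 replicate 8 the lowest. Of 10 general hepatocyte markers 3 were higher and 7 lower.

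**Figure D2:**
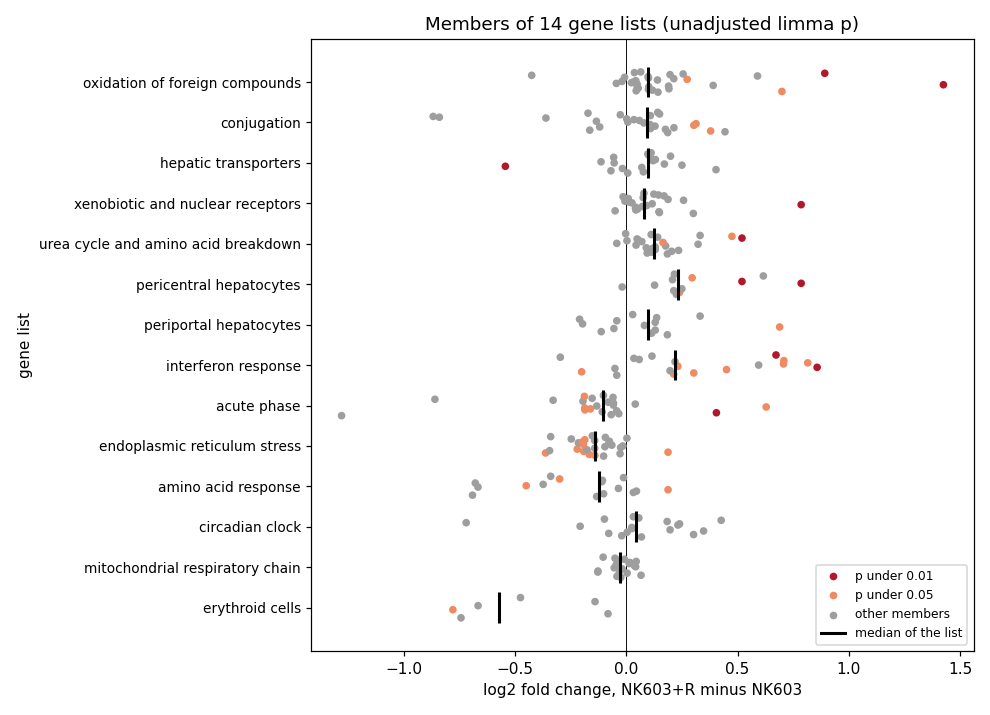
Log2 fold change (NK603+R minus NK603) of each measured member of 14 gene lists, with members at an unadjusted limma p under 0.01 in dark red and under 0.05 in orange, and the median of each list as a black bar. The medians lie between -0.57 for the 6 erythroid markers and 0.23 for the pericentral list.

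Antiviral genes driven by type I interferon were higher in NK603+R livers. Many such genes carry an interferon-stimulated response element near their start. Its core was searched as GAAA, any 2 bases and GAAA, on both strands of the 250 bases before the start, and a promoter with overlapping matches was counted once. The core was present in 3.41% of 33469 rat promoters (RefSeq, GRCr8). Of 14 measured interferon genes with a promoter in that set it was found in 7. Among these 7 were Gbp2, Oas1a and Rsad2, which had no unadjusted p under 0.05 and are not shown, and Rsad2 was lower in NK603+R livers. Shown are those with a match that had an unadjusted p under 0.05 here, each on the strand of its gene, with the matches in capitals. A match is a description of the letters and not proof of a site.
Irf7 (chr1:205800058-205800117, minus strand): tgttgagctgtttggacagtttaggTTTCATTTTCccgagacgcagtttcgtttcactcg
Ifit3 (chr1:241527257-241527316, plus strand): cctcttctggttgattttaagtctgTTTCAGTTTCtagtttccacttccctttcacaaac
Ifi44 (chr2:243303841-243303891, minus strand): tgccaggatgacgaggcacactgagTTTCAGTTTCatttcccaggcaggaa
Ifi27 (chr6:128355118-128355262, plus strand): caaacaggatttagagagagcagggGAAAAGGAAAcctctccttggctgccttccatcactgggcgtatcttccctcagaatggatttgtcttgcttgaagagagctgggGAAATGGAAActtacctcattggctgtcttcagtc

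Irf7, the transcription factor that amplifies the interferon response, ran from 7.54 through 8.18 to 10.25 in NK603+R rats and from 7.04 through 7.29 to 8.30 in NK603 rats. In 6 NK603 rats it lay below every NK603+R rat, and 3 NK603+R rats lay above every NK603 rat. The log2 fold change was 0.86 (SE 0.28, limma adjusted p = 0.785) and 0.62 without NK603+R replicate 3, the rat with the value of 10.25. Usp18, which removes the ISG15 tag and damps interferon signalling, ran from 8.10 through 8.69 to 10.12 in NK603+R rats and from 7.69 through 8.08 to 8.75 in NK603 rats. NK603+R replicate 3 was again the highest, and the log2 fold change was 0.67 (SE 0.21, limma adjusted p = 0.785). A second transcript cluster of Usp18 also gave 0.67.

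Of 19 interferon genes measured 15 were higher, with a median log2 fold change of 0.22, and 10 had an unadjusted p under 0.05, of which 9 were higher. Besides Irf7 and Usp18 these were the antiviral GTPase genes Mx2 (0.82) and Mx1 (0.71), Oasl (0.71), Ifit3 (0.45), Ifi44 (0.30), Irf9 (0.23), a part of the interferon-activated factor, and Ifi27 (0.21). Ifit1 was lower, at -0.20. Rsad2 had the lowest log2 fold change of the list, -0.30, and was not past that limit. The mean of the list ran from -0.23 through 0.12 to 0.93 in NK603+R rats, from -0.50 through -0.13 to 0.12 in NK603 rats and from -0.24 through 0.00 to 0.83 in control rats. The highest NK603+R and control values were those of replicate 3 of each, killed at 554 and 540 days. Without NK603+R replicate 3 the median of the list was 0.16 and Ifi44 was at 0.20, and in rats that lived for 700 days or longer Ifi27 was at 0.07 and Mx1 at 0.46. The number at an unadjusted p under 0.05 was 5 without NK603+R replicate 3 or without NK603 replicate 9, and 6 without NK603 replicate 2, without NK603 replicate 8, without NK603+R replicate 6 or in the older rats, and in rats of at least 533 days, a limit applied to the lists after the data were seen, it was 3.

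RT1-T24-3, a class I histocompatibility gene of a family with near-identical members and so uncertain, had a log2 fold change of 0.68, with 6 NK603+R rats above every NK603 rat. Siglec1, the macrophage receptor CD169, had 0.43 and was 0.26 in rats that lived for 700 days or longer. Cd14, a coreceptor for bacterial lipopolysaccharide, ran from 8.92 through 9.29 to 9.85 in NK603+R rats and from 8.66 through 8.84 to 9.14 in NK603 rats. Its log2 fold change was 0.40 (SE 0.11, limma adjusted p = 0.785), and the control median was 9.36. Of the marker lists of immune cells, 5 of 15 markers of Kupffer cells and macrophages, 8 of 15 of T and NK cells and 7 of 14 of neutrophils were higher, none at an unadjusted p under 0.05. Their mean levels ran from -0.56 to 0.28 in NK603+R rats and from -0.47 to 0.74 in NK603 rats for macrophages, and from -0.20 to 0.31 and from -0.46 to 0.22 for T and NK cells. Their part in the interferon values was not tested.

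Osmr, which encodes the oncostatin M receptor subunit, had the lowest log2 fold change of the selected genes named here. Its lowest, median and highest log2 values were 8.45, 9.30 and 9.95 in NK603+R rats and 9.32, 10.25 and 11.26 in NK603 rats. In each diet 5 rats lay outside the range of the other. The log2 fold change was -0.94 (SE 0.26, limma adjusted p = 0.785) and lay between -1.04 and -0.80 with any 1 rat left out. Control rats ran from 8.05 through 9.19 to 10.46. Stat3, the transcription factor downstream of this receptor family, had a log2 fold change of -0.23 (-0.12 in rats of at least 533 days), and the 17 genes of the pathway list held 7 higher and 10 lower.

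Socs2, which restrains signalling by the growth hormone receptor, ran from 8.08 through 8.32 to 8.87 in NK603+R rats and from 8.08 through 8.79 to 9.61 in NK603 rats. The lowest rats of both diets were level, and 4 NK603 rats lay above every NK603+R rat. Its log2 fold change was -0.51 (SE 0.18, limma adjusted p = 0.785), while that of Igf1, the hepatic target of growth hormone, was -0.01. No other gene among 23 of growth hormone signalling and sex-dependent expression had an unadjusted p under 0.05.

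Acute phase genes were mostly lower, 19 of 22, with a median of -0.11. Those at an unadjusted p under 0.05 were the 3 fibrinogen chains Fgg (-0.19), Fga (-0.19) and Fgb (-0.16) and the protease inhibitor gene Serpina3n (-0.19), while Cd14 and the iron hormone gene Hamp (0.63) were higher. That number of 6 was 2 without NK603 replicate 8, 1 in rats of at least 533 days, and 3 in the older rats or without NK603 replicate 2 or NK603+R replicate 2, 6, 7 or 9. Hamp was at 0.38 without NK603 replicate 9 and at 0.20 in rats of at least 533 days. A2m, the alpha-2-macroglobulin of the rat acute phase, ran from 7.57 to 13.61 in NK603 rats and from 8.09 to 11.16 in NK603+R rats, a log2 fold change of -1.28 with an SE of 0.69. Lcn2, lipocalin 2, ran from 7.28 to 13.05 and from 6.84 to 10.23, at -0.86, or -0.30 without NK603 replicate 8. In rats that lived for 700 days or longer A2m was at -1.83 and Lcn2 at -0.69. The mean of the acute phase list was highest in NK603 replicate 8, at 0.71.

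Chaperones of the endoplasmic reticulum were lower as a group by small amounts. The stress element of their promoters was searched as CCAAT, any 9 bases and CCACG, on both strands of the same 250 bases. It was present in 0.0657% of 33469 promoters and in 8 of 21 measured genes of the list with a promoter. Shown are members with a match that were lower at an unadjusted p under 0.05, and Hspa5, the main chaperone, with the match in capitals.
Creld2 (chr7:121789214-121789282, plus strand): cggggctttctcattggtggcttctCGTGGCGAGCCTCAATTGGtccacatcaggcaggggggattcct
Calr (chr19:40213117-40213178, plus strand): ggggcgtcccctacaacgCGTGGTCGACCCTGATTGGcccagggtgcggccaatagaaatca
Hsp90b1 (chr7:23012322-23012494, minus strand): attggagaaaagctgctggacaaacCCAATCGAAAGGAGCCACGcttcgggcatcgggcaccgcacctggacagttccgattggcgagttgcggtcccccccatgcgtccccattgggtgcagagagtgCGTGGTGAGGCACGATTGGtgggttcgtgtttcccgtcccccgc
Hspa5 (chr3:38452948-38453015, plus strand): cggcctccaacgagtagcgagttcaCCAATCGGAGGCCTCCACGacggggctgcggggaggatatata

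Of 27 genes for stress of the endoplasmic reticulum 25 were lower and 2 higher, with a median log2 fold change of -0.14. At an unadjusted p under 0.05 there were 8 lower members: Creld2 (-0.36), Dnajb9 (-0.22), Manf (-0.20), Hsp90b1 (-0.19), Derl1 (-0.19), Pdia6 (-0.19), Calr (-0.17) and Atf6 (-0.14). They encode chaperones, a folding enzyme, a channel part for export of misfolded proteins and, with Atf6, a stress sensor. The one higher was Ddit3, a transcription factor of the late stress response, with 0.19. Hspa5 itself ran from 12.67 through 12.85 to 12.98 in NK603+R rats and from 12.85 through 12.91 to 13.22 in NK603 rats, a log2 fold change of -0.08, or -0.05 without NK603 replicate 8. Its highest value, as that of the whole list (0.39), was in NK603 replicate 8. Without that rat 3 members had an unadjusted p under 0.05, the median was -0.11 and Creld2 was at -0.23. The number past that limit was 4 without NK603+R replicate 6, without NK603+R replicate 7 or in rats that lived for 700 days or longer, where Dnajb9 was at -0.05, Derl1 at -0.08 and Atf6 at -0.09, and 2 in rats of at least 533 days.

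**Figure D3:**
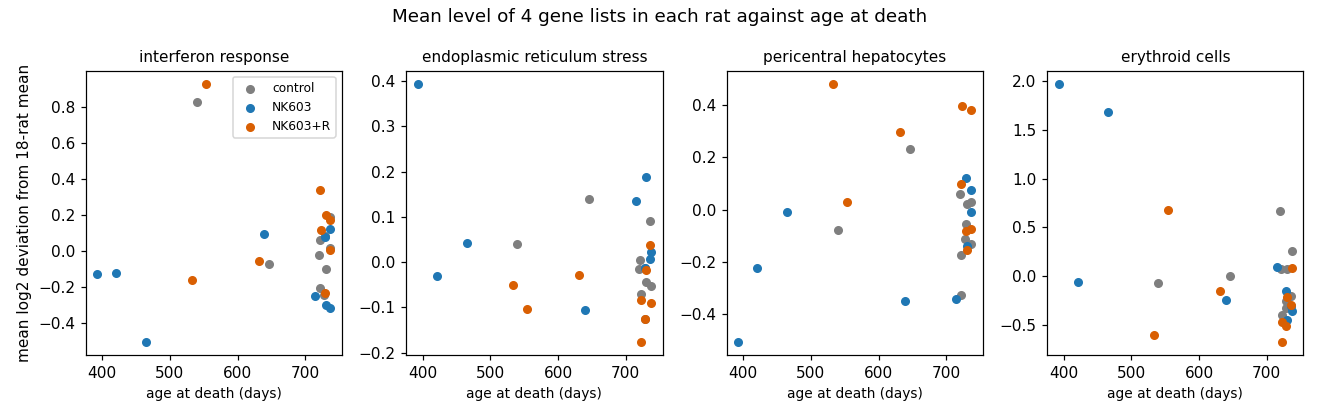
Mean level of 4 gene lists in each rat, as the deviation in log2 units from the mean over the 18 NK603+R and NK603 rats, against age at death in days, with 1 point per rat coloured by diet. The rat killed at 393 days, NK603 replicate 8, is the highest for stress of the endoplasmic reticulum (0.39) and erythroid markers (1.97) and the lowest for the pericentral list (-0.51).

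Genes of the amino acid response, which the factor ATF4 drives when amino acids run short, were lower in 13 of 16 cases (median -0.12). Mthfd2, a mitochondrial folate enzyme, was at -0.45 and Slc3a2, a subunit of amino acid transporters, at -0.30, but NK603 replicate 3 stood highest for this list, with a mean of 1.16, and without it these values were -0.28 and -0.19. Erythroid markers, among them Hba-a1 (-0.78), were lower in all 6 cases, with a median of -0.57 that was -0.30 without NK603 replicate 8, -0.33 without NK603 replicate 9 and 0.04 in rats of at least 533 days. NK603 replicates 8 and 9 had the highest levels, 1.97 and 1.69. Of 18 clock genes 13 were higher, and none of the 18 had an unadjusted p under 0.05. Nr1d1, a clock repressor, had a log2 fold change of -0.72 with an SE of 0.66 (-0.46 without NK603 replicate 9), Cry1 one of 0.35, Per1 one of 0.18 (0.02 without NK603 replicate 5) and the output gene Dbp one of -0.21 (0.17 without NK603 replicate 9). For Nr1d1 the rats fell into a higher and a lower set. It was 9.88, 10.24, 10.72 and 10.94 in NK603 replicates 3, 6, 7 and 9, and 10.84 and 10.58 in NK603+R replicates 4 and 7. The highest value elsewhere was 8.75, in NK603 replicate 1, and control rats reached 8.60. Cry1 lay between 6.54 and 7.13 in the rats with high Nr1d1 and at or above 7.18 in all others. The cause was not tested. In cholesterol synthesis 13 of 18 genes were lower, but 9 were without NK603 replicate 2 or in rats that lived for 700 days or longer, and 8 were in rats of at least 533 days. Fdps, an enzyme of that pathway, was at -0.22 over all rats and -0.07 in those of 700 days or more. Of 25 genes for fatty acid oxidation 16 were higher, but 11 were without NK603+R replicate 7, 12 in rats of 700 days or more and 7 in rats of at least 533 days. Pex11a and Ehhadh, both linked to peroxisomes, were at 0.38 and 0.30. Cyp7a1, the first enzyme of bile acid synthesis, was at 0.06. Of 20 genes of the mitochondrial respiratory chain 7 were higher and 13 lower, and fibrosis and stellate cell genes were split into 13 higher and 12 lower of 25.

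Pprc1, a coactivator of mitochondrial gene expression, ran from 6.16 through 6.36 to 6.60 in NK603+R rats and from 6.40 through 6.77 to 6.98 in NK603 rats. With 7 NK603 rats above every NK603+R rat and 6 NK603+R rats below every NK603 rat, its log2 fold change was -0.35 (SE 0.08, limma adjusted p = 0.686), and -0.23 in rats that lived for 700 days or longer. Pprc1 was lower on arrays with a higher median over all clusters. Pearson's r was -0.55 over the 18 rats, -0.43 within NK603+R and -0.68 within NK603, as a description, and the part of this in its value was not tested. Tent5c, a poly(A) polymerase, was at -0.44, Stimate, a regulator of calcium entry, at -0.44, and Cnp, a cyclic nucleotide phosphodiesterase, at -0.44. Stimate had 7 NK603 rats above every NK603+R rat, and 6 NK603 rats had more Cnp than any control rat. Among NK603+R rats Stimate was lower on arrays with a higher median over all clusters (mean 7.05 on the 4 arrays with the highest medians and 7.44 on the other 5, Pearson's r = -0.86 over the 9 rats, as a description). Within NK603 rats its r was 0.39, in the other direction. The part of the array median in its value was not tested.

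Vamp4, a membrane fusion protein of the Golgi network, Gtf2a2, a subunit of the general transcription factor TFIIA, and Mfap1a, a part of the splicing machinery, shared one pattern among the NK603+R rats. Replicates 1, 3, 7 and 9, the NK603+R arrays with the 4 highest median values over all clusters, lay below the other 5 in each. Of these 4 rats, replicates 1, 3 and 9 were killed at 631, 554 and 533 days. They were the only NK603+R rats killed before 700 days. For Vamp4 the highest of these 4 rats had 6.79 and the lowest of the others 7.21. For Gtf2a2 the corresponding values were 7.72 and 7.90, and for Mfap1a 7.45 and 7.48. The division by array median is narrow, since replicate 1 had a median of 6.008 and replicate 4, outside the set, one of 6.006. Replicate 4 had values of 7.44 for Vamp4, 8.23 for Gtf2a2 and 7.80 for Mfap1a. Across the 18 rats, on 1 array each, Pearson's r with the array median was -0.74 for Vamp4, -0.63 for Gtf2a2 and -0.77 for Mfap1a, given as a description. Within NK603+R rats it was -0.80, -0.81 and -0.86, and within NK603 rats -0.69, 0.14 and -0.66, so that Gtf2a2 had no such relation among NK603 rats. The log2 fold changes were -0.44, -0.37 and -0.34 over all rats and -0.21, -0.17 and -0.09 in rats that lived for 700 days or longer (adjusted p = 0.785 over all rats for the 3, from limma). Hnrnpa1, an RNA-binding protein gene with many near-identical copies and so uncertain, was at -0.52, and Pus3, a pseudouridine synthase, at -0.36, or -0.21 at the later ages. Both had a lower mean in the same 4 rats than in the other 5, 6.68 against 7.30 and 5.88 against 6.29. The part of the array median and of age in these values was not tested.

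**Figure D4:**
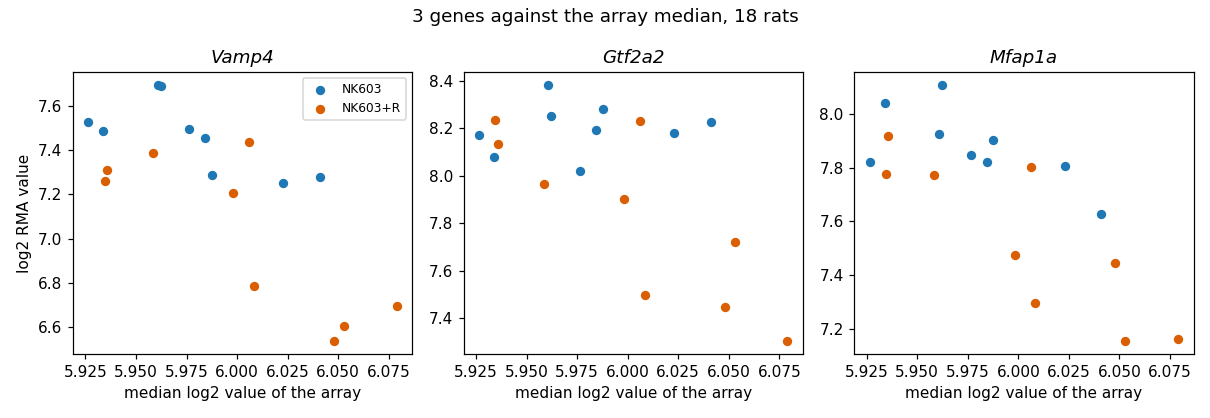
Log2 value of Vamp4, Gtf2a2 and Mfap1a against the median log2 value of the array, with 1 point per rat coloured by diet, for 9 NK603+R and 9 NK603 rats. The 4 NK603+R arrays with the highest medians have the 4 lowest values of NK603+R rats in each panel, at or below 6.79, 7.72 and 7.45.

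Both diets were also set beside the control livers, whose samples both comparisons share. At the same limits NK603+R against control gave 380 clusters (1.04%) and NK603 against control 435 (1.19%). Of the 417 clusters selected between NK603+R and NK603, the control mean lay between the diets in 367 and outside them in 50. These clusters were chosen for a wide gap between the diet means, which by itself makes a control mean between them likely. The count of 367 therefore does not show an order of the diets. It was nearer to NK603+R in 207 and nearer to NK603 in 210. Among the 107 brighter clusters with 1 symbol it was nearer to NK603+R in 61 and nearer to NK603 in 46.

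Among the named genes Osmr, Car3, Oat, Ppm1k and Cd14 had control levels near those of NK603+R. For Osmr the log2 fold change against control was 0.07 (SE 0.26) with NK603+R and 1.01 (SE 0.29) with NK603. For Car3 these values were 0.11 and -0.94, for Ppm1k -0.08 and -0.54, and for Cd14 -0.01 and -0.41. Nr1i3 stood the other way, with 0.64 (SE 0.27) for NK603+R and -0.15 (SE 0.29) for NK603. The control mean was also nearer to NK603 for Hnrnpa1 (-0.33 with NK603+R and 0.18 with NK603), Vamp4 (-0.30 and 0.14) and Mfap1a (-0.23 and 0.11). For Cyp2b2 the control mean lay between, with 0.55 and -0.87, and for Slc13a4 it did with 0.32 and -0.46.

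**Figure D5:**
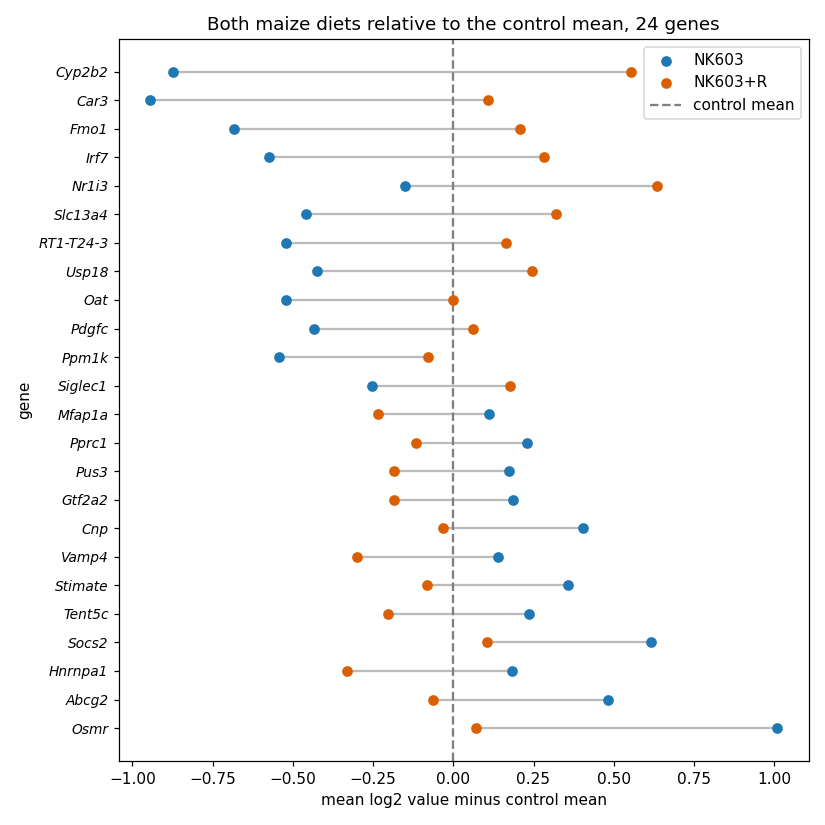
Mean log2 value of 24 named genes in NK603 (blue) and NK603+R (orange) livers minus the control mean (dashed line), ordered by the difference between the diets. The control mean lies close to NK603+R for Osmr (0.07) and Car3 (0.11), and close to NK603 for Nr1i3 (-0.15).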

How the data were processed

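Liver RNA was hybridised to Affymetrix Rat Gene 2.0 ST arrays, 1 per rat. The authors normalised all arrays together by Robust Multi-array Average in Affymetrix Expression Console, and the deposited values are log2 levels per transcript cluster, which depend on the whole set of arrays. Of 36685 clusters 18511 had 1 gene symbol in the platform annotation, 575 several and 17599 none.

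NK603+R and NK603 arrays were compared with limma 3.58.1 (R 4.3.3; lmFit and eBayes, two-sided, Benjamini-Hochberg adjustment over all clusters), which was tested on simulated arrays. Selection was at an unadjusted p under 0.01 with a fold over 1.1. Named are the 12 highest and 12 lowest log2 fold changes among selected clusters with 1 symbol and a level at or above the median, the 5 smallest p, list members with a p under 0.01, and a set of liver genes whatever their p. Of 667 genes in 36 lists 580 were measured, each at its brightest cluster, and the others were not analysed here. The members and lists were chosen with earlier results of these data known. Each rat is 1 array, so limma p-values weigh a difference of diet means against the spread between rats. Promoter sequences came from RefSeq (GRCr8) and were matched by gene. Precision is set by the number of rats. The alternatives were 13 other settings and the 18 rats left out in turn.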

Additional observations from a re-analysis of the deposited data

Results flagged for a closer look

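In 138 groups of named genes (a gene within a diet) the highest or lowest rat was compared with its nearest neighbour, and in 12 the gap was larger than Dixon's 95% limit. Chance alone flags about 1 in 20 groups. Rats numbered 3 stood apart in interferon genes: Irf7 was 10.25 in NK603+R replicate 3 (next rat 8.62) and 9.75 in control replicate 3 (next 8.20), where Usp18 was 10.04 (next 8.96) and Siglec1 8.21 (next 7.40). Control replicate 1 had the highest Dbp, 11.41 (next 8.37), and Por, 11.89 (next 10.13). NK603 replicate 8, the youngest rat, had the highest Hspa5, 13.22 (next 12.94), and NK603+R replicate 1 the highest Lcn2, 10.23 (next 8.25). Abcg2 was 8.60 in NK603+R replicate 2 (next 7.89) and Tent5c 9.60 in NK603+R replicate 4 (next 9.16). Gtf2a2 was lowest in control replicate 6, at 7.41 (next 7.86), and cluster 17603959 was highest in NK603 replicate 1, at 5.50 (next 5.04).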

How the results depend on the processing

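The count of 417 selected clusters lay between 308 (without NK603+R replicate 9) and 540 (without NK603+R replicate 6) when each rat was left out. It was 226 with brighter clusters only and 232 with clusters of 1 symbol only, where fewer clusters were tested. In rats killed at or after 700 days it was 279, of which 66 were among the 417. Of the selected clusters 41.5% were higher in NK603+R, against 26.8% (114 and 311) when each array was centred on its median, 52.6% (225 and 203) after another quantile normalization and 52.2% (121 and 111) with 1 symbol only. The count at an adjusted p under 0.05 ran from 0 to 1, the 1 being cluster 17606709 without NK603 replicate 5, and by the methods' t-test, which selected 429 clusters, it was 0. The difference in spread between rats, NK603+R minus NK603, was -1.42 and turned to 0.0325 in rats of at least 533 days. Apart from leaving out rats, signs turned for 4 genes that were not selected: Cyp3a9 (0.00305 at or after 700 days), Dbp (0.0126 at or after 533 days and 0.19 at or after 700 days), Cyp7a1 (-0.00738 with array weights and -0.0897 at or after 700 days) and Igf1 (0.0175 with age as a covariate, 0.0496 and 0.12 by the same age limits). With 1 rat left out the sign of Por, also not selected, turned as well. Por then ran from -0.0601 to 0.18, Cyp7a1 from -0.0368 to 0.16, Dbp from -0.48 to 0.17 and Igf1 from -0.0448 to 0.0233. The cause was not tested.

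Rats share replicate numbers between diets, and the labels do not state a pairing. Same-numbered NK603+R and NK603 rats had correlations of their deviations between -0.139 and 0.23, with 1 of 9 matching its own number best. With the replicate block 448 clusters were selected, of which 262 were among the 417, and 0 passed the adjusted p.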
